A study of Mus musculus with 8 samples.

Results

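The genes described here encode complement and coagulation proteins of blood plasma. They were taken as a listed set of 33 gene symbols, chosen by function and not by a measured value. Earlier results of these data were known at the time. All 33 were found among 21523 protein-coding genes of the autosomes and X in the RefSeq table of GRCm38.p6. The data are RNA polymerase II (Pol II) ChIA-PET from liver, in which chromatin is pulled down with a Pol II antibody and DNA ends held in one crosslinked complex are ligated and sequenced as a paired-end tag (PET). A PET therefore has 2 ends, and the density of ends over a gene follows how much Pol II-bound chromatin was recovered there. All livers came from wild-type C57BL/6 mice of 3 to 6 months kept on 12 h of light and 12 h of dark with free access to food. They were collected at ZT06, mid-day, or at ZT18, mid-night.

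There were 3 experiments. JM08 and JM12 used dual crosslinking with 1.5 mM EGS, a reagent that joins proteins over a longer reach, and 1% formaldehyde, and JM11 used 1% formaldehyde alone. Chromatin of 3 to 7 livers was pooled for each immunoprecipitation, and the antibody in all groups was clone 8WG16 against Pol II. The labels describe 8 libraries, 4 from JM08 and the others split evenly between JM11 and JM12, with both times in each experiment. The table used here names the experiment of each PET but neither its library nor its time, so day and night were not compared. Each value is that of 1 pool per experiment. No spread between replicates exists, no test was run, and the 95% intervals cover counting error only. Crosslinking and experiment cannot be told apart for JM11, since formaldehyde alone was used in that experiment only.

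Complement and coagulation are cascades of plasma proteases. An inactive precursor is cut into an active enzyme, which cuts the next precursor, and serpins and other regulators hold the steps in check. In complement, the lectin, classical and alternative pathways meet at C3, and C5 then seeds the membrane attack complex from C6 to C9. In coagulation, the contact system and tissue factor lead through factor X to thrombin, which makes fibrin, and plasmin later dissolves it. Hepatocytes secrete most of these proteins.

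The promoters of 5 members are printed to show the sequence at genes of very different Pol II density. C3, Serpinf2 and Masp2 were the members densest in JM08 among those with a promoter entry, F2 was the densest with an HNF1 match, and F9 was the sparsest in JM08. Each runs 5′ to 3′ from 250 bases before to 50 after the annotated start, as given by RefSeq on GRCm38.p6. Capitals mark a match to a TATA box (TATAAA), a C/EBP motif (TTGCNNAA) or an HNF1 half-site (GTTAAT) on either strand.
C3, chr17:57228087-57228386, minus strand: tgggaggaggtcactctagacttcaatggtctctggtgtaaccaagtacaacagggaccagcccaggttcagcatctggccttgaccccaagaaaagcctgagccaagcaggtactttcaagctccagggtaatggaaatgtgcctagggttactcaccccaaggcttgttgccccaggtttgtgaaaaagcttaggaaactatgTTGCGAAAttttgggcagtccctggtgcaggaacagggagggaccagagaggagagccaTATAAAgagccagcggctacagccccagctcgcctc
Serpinf2, chr11:75439452-75439751, minus strand: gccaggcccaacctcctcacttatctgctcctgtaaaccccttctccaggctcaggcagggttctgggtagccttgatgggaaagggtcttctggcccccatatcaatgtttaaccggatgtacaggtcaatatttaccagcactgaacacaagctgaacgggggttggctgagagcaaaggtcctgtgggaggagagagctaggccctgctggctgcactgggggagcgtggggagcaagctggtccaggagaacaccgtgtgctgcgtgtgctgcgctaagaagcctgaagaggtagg
Masp2, chr4:148602294-148602593, plus strand: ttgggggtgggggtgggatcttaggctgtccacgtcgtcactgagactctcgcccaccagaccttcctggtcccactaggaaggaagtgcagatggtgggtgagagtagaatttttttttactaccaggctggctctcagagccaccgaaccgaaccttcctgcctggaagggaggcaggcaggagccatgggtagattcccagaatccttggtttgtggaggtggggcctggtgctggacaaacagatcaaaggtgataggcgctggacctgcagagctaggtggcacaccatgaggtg
F2, chr2:91636408-91636707, minus strand: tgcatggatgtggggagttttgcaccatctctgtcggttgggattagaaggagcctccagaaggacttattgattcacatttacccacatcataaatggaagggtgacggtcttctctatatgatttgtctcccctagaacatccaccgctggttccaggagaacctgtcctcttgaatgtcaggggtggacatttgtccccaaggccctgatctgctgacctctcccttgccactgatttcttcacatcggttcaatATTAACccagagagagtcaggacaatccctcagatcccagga
F9, chrX:59999214-59999513, plus strand: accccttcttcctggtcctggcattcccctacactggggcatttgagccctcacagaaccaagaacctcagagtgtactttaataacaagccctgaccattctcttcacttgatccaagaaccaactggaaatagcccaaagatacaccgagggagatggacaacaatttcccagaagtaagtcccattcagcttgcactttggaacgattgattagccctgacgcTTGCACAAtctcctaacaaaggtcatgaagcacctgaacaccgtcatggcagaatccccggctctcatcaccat

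In the C3 promoter the C/EBP match began at position -45 and the TATA box match at 15, counted from the annotated start. In F9 the C/EBP match began at -24, and in F2 the HNF1 half-site, read on the opposite strand, began at 9. The Serpinf2 and Masp2 windows held none of the 8 motifs searched, so the densest members did not share a match. C/EBP and HNF1 proteins are transcription factors of hepatocytes. Promoters were matched for 24 of the 33 members, with 25 promoter windows in all.

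TTGCNNAA was found in 7 of these 25 windows (28.0%), those of C1ra, C3, C9, F11, F9, Klkb1 and Serpinc1, against 10.3% of 21045 windows of all protein-coding genes. GTTAAT was found in 6 (24.0%), those of C1ra, C8a, C8b, F13b, F2 and Hc, against 6.25%. The FOXA motif TGTTTAC was in 2 windows (8.00%), F11 and Klkb1, against 3.03%, and the D-box TTANGTAA was in 1 (4.00%), F13b, against 2.13%. TATAAA was in 3 windows (12.0%), against 12.7%, and CCAAT in 7 (28.0%), against 38.5%. Neither the E-box CACGTG (7.91% of all windows) nor the HNF4 core CAAAGTC (4.17%) was found in a member's window. A match describes letters in this window and not a bound site. Base composition differed alongside: the median GC content was 48.7% in the members' windows and 56.7% in all windows, and 8.00% of the members' windows had 10 or more CpG pairs against 57.3% of all. Its part in the motif shares was not tested.

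JM08, JM11 and JM12 held 474478, 1438866 and 840210 PETs. The nuclear genome had 0.369, 1.12 and 0.652 ends per kb, and the members with their flanks held 1756, 1555 and 1601 ends. The liver label was compared with 6 hepatocyte markers. The marker lists were chosen with earlier results of these data known, so this is a description and not an independent check. Of the hepatocyte markers, 6, 4 and 6 had at least 2 times the nuclear mean, with medians of 60.0, 7.89 and 12.6. The lowest was Apoh, with 6.19, 0.816 and 2.48. None of 4 genes of other tissues did so in any experiment. Among markers of other liver cells, the medians for Kupffer cells and leukocytes, sinusoidal endothelium, stellate cells and cholangiocytes lay between 1.04 and 1.77 in each experiment. In bulk liver, fewer cells of a type and less Pol II per cell cannot be told apart.

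Relative density is the number of ends per base over a gene and 2.5 kb on either side, divided by the mean over the nuclear genome of the same experiment. The members were dense in both dual-crosslinked experiments. Their median was 3.70 in JM08, 1.17 in JM11 and 2.18 in JM12, against 1.17, 1.14 and 1.35 for all protein-coding genes. In JM11 the median of the members was thus close to that of all genes. A density of at least 2 was reached by 26 of 33 members in JM08, where 26.4% of all genes reached it. In JM11 it was 4 of 33, against 5.35% of all genes, and in JM12 it was 19 of 33, against 22.8%. All 3 experiments had this density for 4 members, against 4.62% of all genes: C8g, Cfb, Masp2 and Serpinf2.

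**Figure D1:**
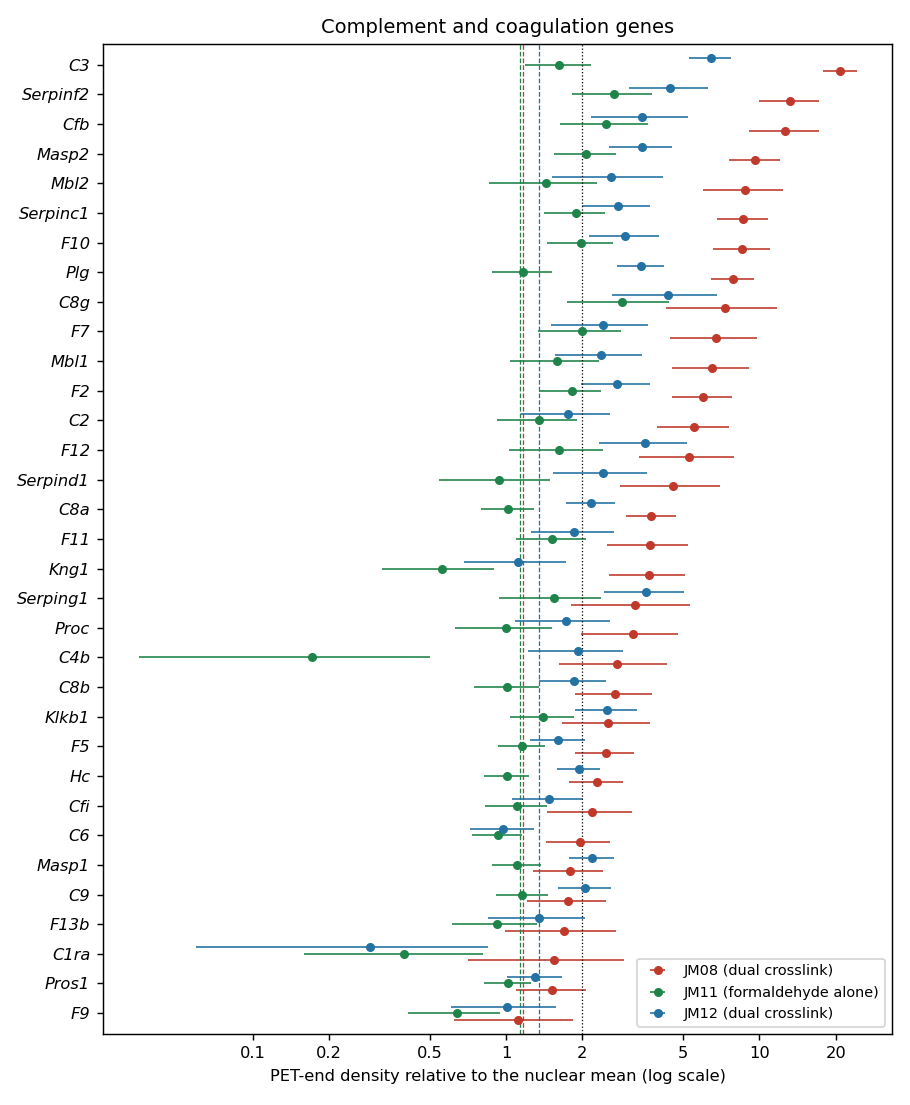
Relative PET-end density (log scale) of each of the 33 members in JM08 (red), JM11 (green) and JM12 (blue), with 95% counting intervals as bars. Dashed lines are the medians of all protein-coding genes in each experiment and the dotted line is a density of 2; C3 is at the top with 20.8 in JM08 and F9 at the bottom with 1.12.

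Gene length bears on this measure, because short genes are mostly promoter and flank. Each member was therefore ranked among the 200 other protein-coding genes nearest to it in length. The members' median percentile was 92.0 in JM08, 61.0 in JM11 and 84.0 in JM12. In JM08, 31 of 33 lay above the median of their length-matched genes, all but F9 (percentile 44.0) and C1ra (47.0). In JM11 it was 20 of 33 and in JM12 28 of 33. At or above the percentile of 95 stood 12 members in JM08, 5 in JM11 and 5 in JM12. The shift away from all genes is visible in the cumulative plot for JM08 and JM12, and the curves run close together for JM11.

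**Figure D2:**
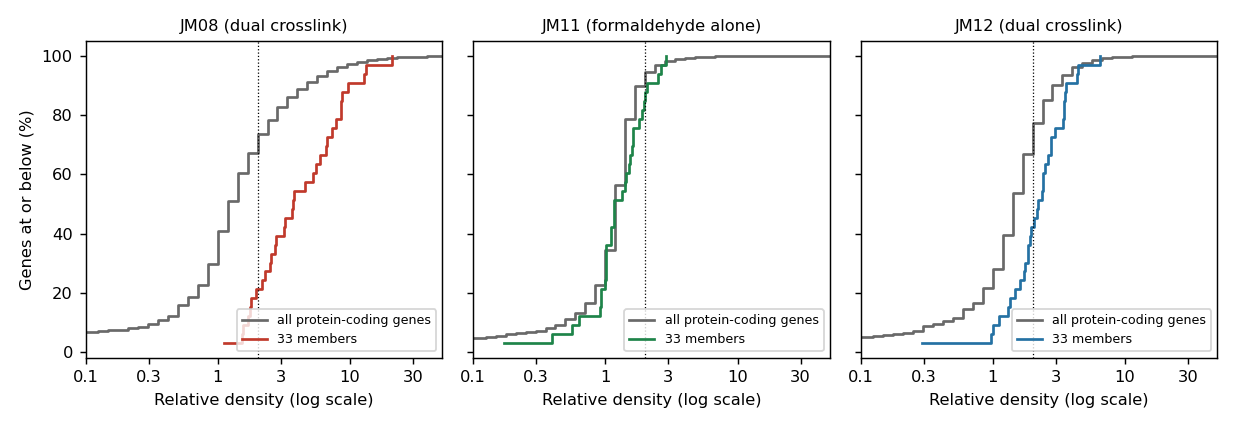
Percent of genes at or below each relative density (log scale) for the 33 members (coloured) and all protein-coding genes (grey, in steps of 0.25 on the log2 scale), one panel per experiment. The dotted line is a density of 2, which 26, 4 and 19 members reached in JM08, JM11 and JM12.

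Among the central components, C3, where the complement pathways meet, was the densest member in JM08 and in JM12. Its density was 20.8 in JM08 (17.8 to 24.2), 1.62 in JM11 (1.19 to 2.17) and 6.42 in JM12 (5.27 to 7.74). The 3 intervals did not overlap, and C3 fell to rank 9 of 33 in JM11. Hc, which encodes C5, had 2.29, 1.01 and 1.94, so C5 was far below C3 in JM08 and JM12.

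In the alternative pathway, Cfb encodes factor B, the protease of its C3 convertase. Cfb had 12.7 in JM08 (9.08 to 17.2), 2.49 in JM11 (1.64 to 3.62) and 3.44 in JM12 (2.16 to 5.21). It lies 87 bp from C2, its counterpart in the classical and lectin pathways, and Nelfe lies on its other side. Of the Cfb ends, 96.2%, 100% and 92.0% in JM08, JM11 and JM12 also fell within a neighbouring gene's span. Bases of a member's own are those more than 2.5 kb from any other protein-coding gene, and Cfb had only 1229 bp of them. There the densities were 4.41 and 2.5 in JM08 and JM12, with no end in JM11, and they rest on very few ends. The high value thus belongs to the locus and could not be assigned to Cfb. C2 itself had 5.53, 1.35 and 1.75, and 2.49, 0.867 and 1.41 on bases of its own.

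Of the 7 lectin and classical pathway genes, Masp2 was the densest in each experiment. It encodes the protease that, bound to mannose-binding lectin, cuts C4 and C2. Masp2 had 9.64 in JM08 (7.58 to 12.1), 2.07 in JM11 (1.54 to 2.72) and 3.44 in JM12 (2.55 to 4.54). Srm and Tardbp lie within its span with flanks and shared 47.8% of its ends in JM08, but on its own bases Masp2 had 10.2, 2.59 and 4.33. The lectins themselves came next: Mbl2 had 8.74, 1.44 and 2.61, and Mbl1 had 6.53, 1.59 and 2.38. Masp1, a protease of the same complexes, had 1.78, 1.10 and 2.18, and its JM08 and JM12 intervals overlapped.

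In JM11, C4b and C1ra were the lowest of this group. C4b, which encodes C4, had 2.74 in JM08 (1.63 to 4.33), 0.172 in JM11 (0.0355 to 0.503) and 1.92 in JM12 (1.22 to 2.88). C1ra, a protease of the C1 complex, had 1.54, 0.395 and 0.291, from 9, 7 and 3 PETs, and C1rl held 66.7% of its ends in JM08. On its own bases C1ra had 0.636, 0.140 and 0.240, and its JM11 and JM12 intervals overlapped. Near-identical gene copies exist for both (C4a beside C4b, C1rb beside C1ra), so tags that fit both copies may have been lost or divided, and these values are uncertain. That was not tested.

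The 5 membrane attack genes were moderate, with a median of 2.70 in JM08, 1.02 in JM11 and 2.05 in JM12. The 3 subunits of C8 differed. C8g, a lipocalin subunit, had 7.34 in JM08 (4.28 to 11.8), 2.86 in JM11 (1.75 to 4.41) and 4.34 in JM12 (2.61 to 6.78), the highest value of any member in JM11. C8a had 3.75, 1.02 and 2.17, with 71.4% of its ends in JM08 also in the span of Fyb2, and C8b, 11.1 kb from it, had 2.70, 1.01 and 1.85. However, C8g is only 3.13 kb long and shares its span with Lcn12 and Fbxw5, which also held 90.9% of its ends in JM08. On its own bases, only 1688 bp, C8g had 3.21, 1.06 and 2.73, again from very few ends. C6 had 1.95, 0.927 and 0.973 and C9, the pore-forming component, had 1.76, 1.16 and 2.05.

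Both complement regulators were above 2 in JM08. Serping1 encodes the C1 inhibitor, a serpin that also blocks kallikrein and factor XIIa, and it had 3.23, 1.54 and 3.56. Cfi, the protease that inactivates C3b and C4b, had 2.18, 1.11 and 1.48.

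In JM08 the 8 coagulation zymogens and cofactors spanned from F10 to F9. F10, whose product activates prothrombin, had 8.57 in JM08 (6.55 to 11), 1.98 in JM11 (1.45 to 2.64) and 2.96 in JM12 (2.12 to 4.02). F7, the partner of tissue factor, lies 1.5 kb from F10 and had 6.73, 1.99 and 2.41, with 52.6% of its ends in JM08 also in the span of F10. F2, which encodes prothrombin, had 5.97, 1.81 and 2.75, and its promoter is the one printed above with an HNF1 match. On its own bases, away from the neighbouring Ckap5, F2 had 8.59, 2.38 and 3.31. F12, which starts the contact pathway, had 5.29, 1.61 and 3.55, and F11, which activates factor IX, had 3.70, 1.52 and 1.86.

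The rest of this group was sparser. F5, the cofactor of factor Xa, had 2.47, 1.16 and 1.61. F13b, the carrier subunit of the fibrin-crosslinking factor XIII, had 1.69, 0.919 and 1.35. F9, the factor lacking in hemophilia B, had 1.12 in JM08 (0.625 to 1.84), 0.638 in JM11 (0.409 to 0.949) and 1.01 in JM12 (0.609 to 1.58). The JM08 and JM12 intervals of F9 included the nuclear mean, and F9 was the lowest member in JM08. F9 is the only member on the X chromosome, and density was not corrected for the number of X copies. The part of this in its low values was not tested. Between F10 and F9, factors of one cascade that are cut in sequence, the density in JM08 differed beyond the counting intervals.

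In the contact system, Kng1 encodes kininogen, the source of bradykinin, and Klkb1 encodes the prekallikrein that releases it. Kng1 had 3.66, 0.557 and 1.12, and Klkb1 had 2.54, 1.40 and 2.5. Kng1 has a close copy, Kng2, so its values carry the same uncertainty as those of C4b. Klkb1 lies 4.63 kb from F11, but their spans shared at most 1 end in any experiment.

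Among the 6 anticoagulant and fibrinolysis genes, Serpinf2 was the densest. It encodes α2-antiplasmin, the inhibitor of plasmin. Serpinf2 had 13.2 in JM08 (9.92 to 17.1), 2.66 in JM11 (1.82 to 3.76) and 4.45 in JM12 (3.06 to 6.25). Wdr81 shared 40.3% of these ends in JM08, and on its own bases Serpinf2 had 10.9, 2.33 and 3.83. Serpinc1, which encodes antithrombin, had 8.61, 1.88 and 2.76.

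Plg, the precursor of plasmin, is 40.8 kb long and had 7.88 in JM08 (6.45 to 9.53), 1.17 in JM11 (0.882 to 1.53) and 3.42 in JM12 (2.75 to 4.21). The 3 intervals of Plg did not overlap, as for C3. Serpind1, heparin cofactor II, had 4.57, 0.935 and 2.41, but it lies wholly inside the span of Pi4ka, so no base is its own and its value cannot be assigned to it. Proc, protein C, had 3.16, 1.00 and 1.72. Pros1, its cofactor protein S, had 1.52, 1.02 and 1.30. Plasmin's precursor and its inhibitor were thus among the 8 densest members in JM08, while the protein C cofactor was among the lowest.

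Shared ends changed which members passed in all 3 experiments. With bases inside other protein-coding genes left out, a setting chosen after the data were seen, 4 members again had a density of at least 2 in every experiment. C8g and Cfb, with only 1688 and 1229 bp left, no longer passed. Masp2 and Serpinf2 remained, and F2 and Serpinc1 came in. No share of all protein-coding genes stands beside this count, so it is not set against a background.

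The members' relative densities were mostly higher in JM08 and JM12 than in JM11, the only experiment with formaldehyde alone. Crosslinking and experiment cannot be told apart in this comparison. The density ratio of JM08 to JM11 was above 1 for all 33 members, with a median of 3.29 against 1.16 over the 19512 genes with at least 5 PETs in JM11, of which 59.0% were above 1. It ran from 1.5 for Pros1 to 15.9 for C4b, whose JM11 value came from 3 PETs and is below that minimum, and C3 had 12.8. The ratio of JM12 to JM11 was above 1 for 32 of 33, C1ra being the exception, against 69.4% of the 19512 genes. Its median was 1.66 over the members, against 1.24 over those genes. Both ratios share the JM11 pool. Across the 33 members the rank correlation of density (Spearman's rho) was 0.775 between JM08 and JM11, 0.800 between JM08 and JM12 and 0.818 between JM11 and JM12, against 0.524, 0.712 and 0.562 over all 21523 genes. These are descriptions across genes that share gene length, base composition and mappability, and genes are not replicates.

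A comparison with flanking sequence served as a check on the regional level. For 18 members at least 20 kb free of protein-coding genes was present between 10 and 50 kb away, and density there was used as a local background. The median ratio of member to background was 2.95 in JM08, 1.44 in JM11 and 2.21 in JM12. In JM08 all 18 were above 1, from 1.12 for Klkb1 to 25.6 for C3. F9, the sparsest member in JM08, had 2.71 times its own surroundings there and 2.17 times in JM12. In JM11 15 were above 1, and C1ra (0.789), Pros1 (0.910) and Kng1 (0.978) were below. In JM12 the exceptions below 1 were C1ra (0.326) and Kng1 (0.787). No share of all protein-coding genes stands beside these counts. The ratios carry no interval, so whether they are particular to the members was not tested.

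In JM08 and JM12, ends were denser in the bodies of the members than in genes generally. This was measured on 23 members with a known strand and a length of at least 6 kb, against 12640 such genes. Ends and bases were pooled over genes, so long genes weigh most in the body values. Members and all genes were not matched for length here. Around the start (1 kb on either side) the members' pooled density was 11.7 in JM08 (10.1 to 13.4), 3.15 in JM11 (2.68 to 3.67) and 4.97 in JM12 (4.20 to 5.83), against 7.82, 2.40 and 4.42 for all genes. In the body it was 3.50 (3.27 to 3.74), 1.10 (1.03 to 1.18) and 1.90 (1.77 to 2.03), against 1.04, 1.09 and 1.15. Around the end it was 6.13 (5.01 to 7.42), 1.57 (1.25 to 1.96) and 2.20 (1.70 to 2.80), against 1.89, 1.15 and 1.58. The body density of the members was thus above that of all genes in JM08 and JM12 beyond the counting intervals, and in JM11 the difference lay within them. These intervals come from the number of ends. Both ends of a short PET can fall in one window, so the intervals are too narrow.

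The ratio of start to body was 3.34 in JM08 and 2.62 in JM12, against 7.53 and 3.85 for all genes. In JM11 it was 2.86 against 2.21. These ratios were not matched for gene length either. C3 alone gave 196 of the 878 body ends in JM08. Without C3 the JM08 body density was 2.81 and the ratio 4.10. In the plot around gene starts, the density of the members in JM08 was 12.9 in the first kb and 9.08 in the third, where all genes had 1.71. Without C3 these were 12.5 and 5.42. In the third kb past the gene end it was 7.43, and 7.02 without C3. Ends in neighbouring genes were kept in all these windows, and the third kb past the end of F7 lies inside F10.

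**Figure D3:**
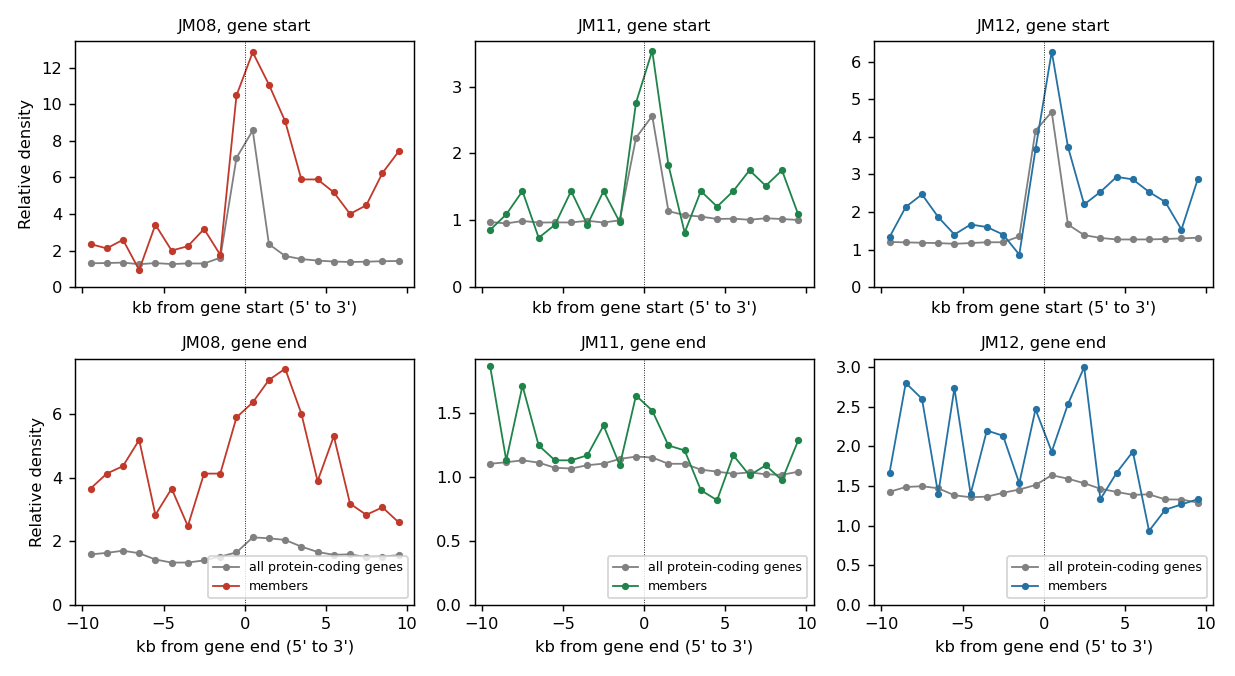
Relative density in 1 kb bins around the start (top) and end (bottom) of the members (coloured) and of all protein-coding genes (grey), with 1 column per experiment and separate vertical scales. Members peaked at the start in each experiment, with 12.9 in the first kb in JM08, and the JM08 curve stayed above that of all genes through the 10 kb downstream.

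Single members differed in where the ends lay. In bins of 2 kb, the highest of C3 in JM08 ran from 2 to 4 kb inside the gene, with 55 ends and a density of 74.6. In JM12 it ran from 4 to 6 kb, with 21 ends and 16.1, close to the first 2 kb. Within 1 kb of the C3 start the density was 14.9 in JM08, below the 24.0 of the body, and 13 in JM12, above the 6.44 of the body. Serpinf2 and Masp2 were highest in the first 2 kb, each with 22 ends and 29.8 in JM08, and with 7.67 and 11.5 in JM12. The start used is that of the promoter window. For Masp2 this window began at 148602294, inside a gene span that began at 148594622. The Hc window likewise lay inside the Hc span. In both, bases of the span before that start were counted as upstream. Around the gene end the experiments differed: within 1 kb of it Masp2 had 20.3 in JM08, above the 10.4 of its body, but no end in JM12, where its body had 3.78. Serpinc1 had 1 end within 1 kb of its start and 12 around its end in JM08, but 7 and 2 in JM11 and 6 and 3 in JM12. The spans of Serpinf2, Masp2 and Serpinc1 with flanks overlap those of neighbouring genes, so these ends could not be assigned to the members alone. For F2, the first 2 kb were highest in both dual-crosslinked experiments, with 16.3 and 14.6.

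**Figure D4:**
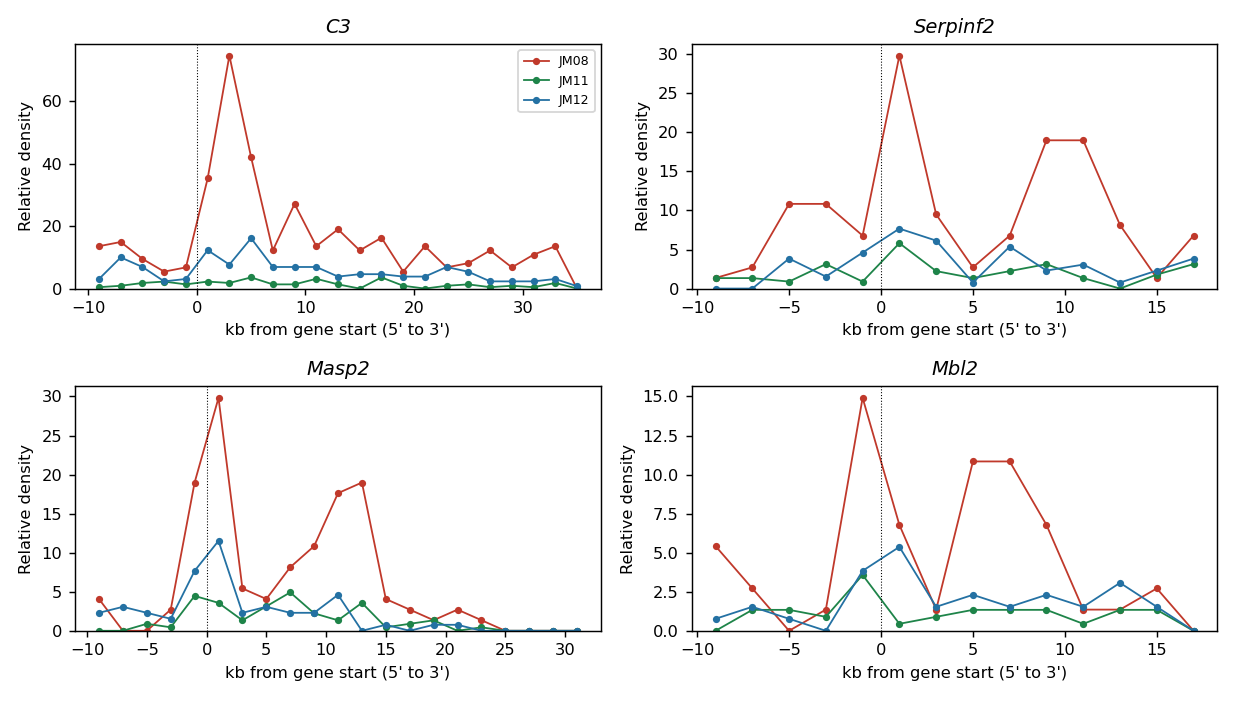
Relative density in 2 kb bins along C3, Serpinf2, Masp2 and Mbl2, the densest members in JM08 with a known strand, in JM08 (red), JM11 (green) and JM12 (blue). The C3 peak of 74.6 in JM08 lay 2 to 4 kb inside the gene, while Serpinf2 and Masp2 peaked in the first 2 kb. For Masp2 the start is that of its promoter window, which lies inside its span.

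PETs joining points 8 kb to 1 Mb apart were rare at these genes. Of the PETs touching a member, 74.7%, 85.8% and 81.9% in JM08, JM11 and JM12 joined different chromosomes. PETs whose ends lay within 8 kb of each other made up 21.1% (19.0 to 23.3%), 9.49% (8.00 to 11.2%) and 11.7% (10.1 to 13.5%), against 20.4%, 5.12% and 11.9% over all protein-coding genes. PETs on one chromosome over 10 Mb apart numbered 45, 57 and 72, and those of 1 to 10 Mb numbered 6, 7 and 6. Contacts of 8 kb to 1 Mb numbered 8, 1 and 12, which is 0.567% (0.245 to 1.11%), 0.0719% (0.00182 to 0.400%) and 0.849% (0.439 to 1.48%) of the members' PETs. All protein-coding genes had 0.293%, 0.111% and 0.463%, each inside the members' interval, so no difference was detectable at this depth.

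**Figure D5:**
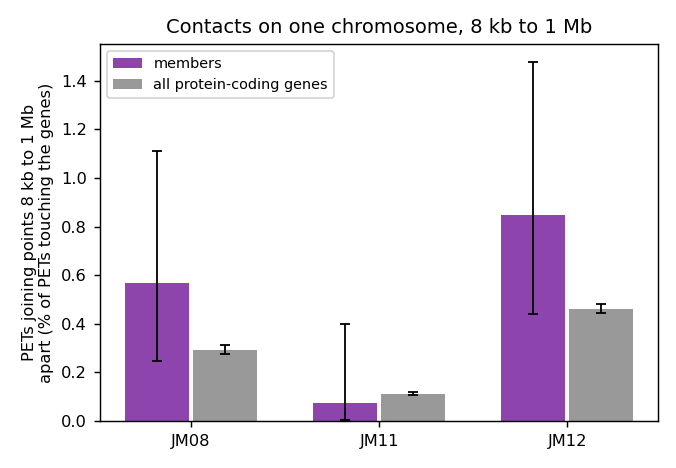
Percent of PETs touching the members (purple) or any protein-coding gene (grey) that joined points 8 kb to 1 Mb apart on one chromosome, with exact 95% binomial intervals as bars. The members' bars rest on 8, 1 and 12 PETs, and their intervals are wide.

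These 21 contacts touched 16 members, and 17 members had none. Of the 13 contacts of 8 to 100 kb, 4 stayed within the member's own span, 7 reached another protein-coding gene and 2 reached none. Plg had 1 PET of 18.4 kb inside itself in JM08, Masp1 had 1 in JM08 and 1 in JM12, and Mbl2 had 1 of 8.99 kb in JM12. F10 was joined over 34.1 kb to Proz, which encodes protein Z, a cofactor for the inhibition of factor Xa, by 1 PET in JM08. Mbl1 was joined over 55.2 kb to Mat1a in JM08, and Serpinc1 over 95.6 kb to Cenpl in JM12. C9 reached Dab2, its neighbour, over 16.8 kb, and Klkb1 reached Cyp4v3 over 67.9 kb, both in JM12. Each was a single PET.

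Serpinf2 was the only member with a pair of contacts whose ends lay within 10 kb of each other on both sides. In JM08, PETs of 21.4 and 29.9 kb left its start region, within 388 bp of each other, and landed 8878 bp apart, the second in Tlcd2. Both start-region ends lay where the spans of Serpinf2 and Wdr81 with flanks overlap. The pair could thus not be assigned to Serpinf2 rather than Wdr81. In JM12 a PET of 74.1 kb reached the spans of Prpf8 and Rilp. No PET joined 2 different members, on one chromosome or between chromosomes, among 4217 that touched a member. This includes the pairs that lie close together, Cfb and C2, F7 and F10, and C8a and C8b, apart from PETs inside spans the pairs share.

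Other genes of the pathways were read from a list of 46 that held no member, of which 45 were found. Their median density was 1.43 in JM08, 1.16 in JM11 and 1.66 in JM12, below the members' in JM08 and JM12. At least 2 was reached by 17, 5 and 17 of 45 (37.8%, 11.1% and 37.8%), against 26.4%, 5.35% and 22.8% of all protein-coding genes. In JM11 the share of this list was close to the 12.1% of the members. The list mixes liver-secreted proteins with genes of leukocytes and endothelium. The 5 that reached it in all 3 experiments, named after their values were seen, were the fibrinogen chains Fga, Fgb and Fgg, the plasma protein vitronectin (Vtn), and Vkorc1, the vitamin K reductase. Fgg was highest, with 52.8, 5.80 and 14.2, above each of the 33 members in every experiment. The lowest in JM08 was C5ar1, the C5a receptor of leukocytes, with 0.305, 0.954 and 0.776.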

How the data were processed

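The authors deposited 1 table with a row per PET, giving its experiment, the linkers, the chromosome and position of both ends and their distance. Alignment was with Bowtie2 to mm10 (GRCm38), per the submitters' processing notes. For filters and the removal of duplicates, the sources used here give nothing. The table names no library or time. Gene positions and promoters came from RefSeq tables of GRCm38.p6. Genes listed within the first 3 Mb of a chromosome, which belong to unplaced scaffolds, were left out. Mitochondrial ends were set aside. Relative density, its exact Poisson interval (from the number of PETs, scaled to ends), contacts, position and motifs were computed with Python 3.11.15, numpy 2.4.6, pandas 2.3.3 and scipy 1.17.1, and the density and collapse steps were tested on simulated data. For position along genes the interval came from the number of ends instead. PET reads carry no molecular identifiers, so the intervals cover counting error only. All-gene ratios between experiments used genes with at least 5 PETs in JM11, and the 33 members were kept without this minimum. The members, lists and alternatives were chosen with earlier results of these data known. All 33 members are named, with full intervals for those at 2 or more in all experiments, the lowest and others the results turn on. Other genes are named as neighbours, contact partners, or the highest and lowest of a list.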

Additional observations from a re-analysis of the deposited data

How the results depend on the processing

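No paired analysis was possible because the table names no library or replicate. Of 102 alternative values over 23 results, 20 moved and 82 did not. A count moved when it changed by more than 1.5 times, and another value when it left the 95% interval of the reported one (for the median over members, an interval from their order). The number of members at 2 or more in JM11, and in all 3 experiments, was 4. It became 1 with a flank of 10 kb, 1 with PETs between chromosomes alone, 13 at a threshold of 1.5 and 0 at 3. JM12 had 8 at 3. No share of all protein-coding genes stands beside the counts at these other settings or with an experiment left out. These counts therefore show only how the number of members depends on the setting. Leaving out experiments gave 4 to 17 for the count in all, with 17 without JM11. It gave 1.55 to 2.85 for the median of the members' geometric means (main value 2.18), lowest without JM08. It gave 9 to 20 for the contacts, with 13 without JM08 and 9 without JM12. The start-to-body ratio in JM08, JM11 and JM12 was 4.21, 3.81 and 3.34 with 500 bp windows and 2.69, 1.88 and 1.80 with 2500 bp windows. It was 4.10 in JM08 with C3 left out, chosen after the data were seen. Other causes were not tested. The contacts rest on 21 PETs over all members.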
